A study of Homo sapiens with 6 samples.

Results

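Chemokines, interleukins and the receptors of interleukins are the secreted signals, and the sensors of those signals, through which epithelial and immune cells address each other. The 124 genes described here are the protein-coding genes, out of 57905 genes in the table, whose symbol is that of a CXCL or CCL chemokine, of *CX3CL1*, or starts with IL and a number. They comprise 41 receptor genes and 83 ligands, antagonists and others with such a name, and 5 pseudogenes with a matching name were left out. Interferon receptors, chemokine receptors and colony stimulating factors carry other names and are described only beside these genes. Their messenger RNA was measured by poly(A) RNA sequencing in RT4 cells, a bladder cancer line whose genotype the labels give as wild type. *LEADR*-depleted cells, called LEADR-KD, received 100 pmol of an siRNA against the spliced RNA *LEADR* made from *MIR205HG*, and Scramble cells received the same amount of a universal negative control siRNA. Both were harvested after 48 h of transfection, with 3 libraries per siRNA. The study asked what the loss of *LEADR* does to gene expression in non-muscle invasive bladder cancer cells. There was 1 cell line and 1 siRNA, only RNA was measured and not the secreted proteins. The study calls its replicates biological without describing whether they were separate cultures, so p-values reflect only how far these samples spread, which may be partly technical.

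Chemokines guide leukocytes along gradients, and their names follow the spacing of their first cysteines, CXC or CC. CXC chemokines that bind CXCR1 and CXCR2, such as IL-8, attract neutrophils, whereas CXCL9, CXCL10 and CXCL11 are induced by interferon and attract T cells through CXCR3. Interleukins signal through families of receptors that share a chain, such as IL1RAP for the IL-1 family, gp130 (encoded by *IL6ST*) for the IL-6 family and the common gamma chain (encoded by *IL2RG*) for IL-2, IL-7 and IL-15. In the urinary tract, the epithelium itself makes several of them in response to bacteria and to injury.

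The siRNA is shown first, since any sequence it shares with these genes bears on how their values are read. It is written 5′ to 3′ as the labels list it and then as its complement, with bases 2 to 8, the seed, in capitals.
LEADR siRNA, listed strand: aACUGGGUgcuuuauauagga
LEADR siRNA, complementary strand: uCCUAUAUaaagcacccaguu
The listed strand reads the same way as the target RNA, since 13 of the 17 isoforms of *MIR205HG* in the GENCODE annotation hold it as written and 0 hold its complement. The complementary strand is therefore the one that can pair with *LEADR*. The sequence of the control siRNA was not used here.

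The targeted gene was checked first. *MIR205HG*, the host gene of miR-205, had 113, 211 and 101 counts in LEADR-KD 1, 2 and 3, against 511, 337 and 346 in Scramble 1, 2 and 3, and no LEADR-KD library reached a Scramble library. Its log2 fold change, LEADR-KD over Scramble, was -1.47 (standard error 0.26), with an adjusted p of 0.00180 by edgeR's quasi-likelihood test and the Benjamini-Hochberg method over all 14178 genes tested. The libraries held 15706033 to 18960822 counts. Mitochondrial genes took 3.06% to 11.9% of them, with the highest share in library 1 of both groups. Of 17 leukocyte markers, 8 were at 0 counts in every library and the whole list summed to 5.01 to 8.55 CPM (counts scaled to the library size) in LEADR-KD and 5.34 to 9.13 CPM in Scramble, whereas the 17 urothelial markers summed to 8690 to 9309 CPM in LEADR-KD and 7310 to 8075 CPM in Scramble. Among the urothelial markers *CDH1*, *UPK1B* and *KRT18* rose and *FOXA1* fell, and *KRT5*, *KRT13* and *KRT20* were at or below 1.12 CPM in every library. The 8 endothelial markers, 3 of them at 0, summed to 6.00 to 8.03 CPM in LEADR-KD and 10.9 to 13.5 CPM in Scramble, with *VWF* lower, and the 10 fibroblast markers, 7 of them at 0, to 18.4 to 25.7 CPM in LEADR-KD and 26.4 to 32.1 CPM in Scramble, and their part in the results was not tested. Most of the leukocyte sum came from *ITGAM*, which averaged 5.87 CPM in LEADR-KD and 6.67 CPM in Scramble. Most of the fibroblast sum came from *COL3A1*, which averaged 19.8 CPM in LEADR-KD and 27.3 CPM in Scramble. The library sizes behind CPM were scaled by edgeR's TMM method.

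Many genes of the family were not detected in these cells. Of the 124 genes, 50 had 0 counts in all 6 libraries and another 29 had at most 59 counts summed over the 6 libraries, too few to be tested, so that 45 were tested. The genes with no count included *IL2*, *IL4*, *IL13* and *IL17A*, which are T cell cytokines, the monocyte chemokine *CCL2*, and *IL6*, *IL10* and *IL12B*. A library with no count of a gene still allows 3 counts, which is 0.154 to 0.188 CPM, so low expression of these genes was not detectable at this depth. Together the 124 genes took 0.0624% to 0.0810% of the counts of a library. In RNA of a whole culture, fewer cells that express a gene and less RNA per cell cannot be told apart.

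Per gene length, the family was led by a chemokine and by receptor chains of the IL-4, IL-13 and IL-6 systems. *CXCL16*, a chemokine that is made as a membrane protein, averaged 14.2 FPKM (fragments scaled to gene length and library size) in LEADR-KD and 14.2 FPKM in Scramble. *IL13RA1* and *IL4R*, which form the receptor for IL-4 and IL-13 on epithelial cells, averaged 8.51 and 11.3 FPKM in LEADR-KD and 13.9 and 10.9 FPKM in Scramble. *IL6ST* averaged 13.6 FPKM in LEADR-KD and 7.42 FPKM in Scramble, beside *IL6R* with 8.99 FPKM in LEADR-KD and 7.72 FPKM in Scramble. The leading interleukins were *IL1A*, with 9.74 FPKM in LEADR-KD and 8.06 FPKM in Scramble, and *IL8*, with 7.51 FPKM in LEADR-KD and 6.39 FPKM in Scramble. In all, 33 genes had a mean of at least 1 FPKM over the 6 libraries. The libraries of any pair of neighbours in this order overlapped, as the plot of levels shows.

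**Figure D1:**
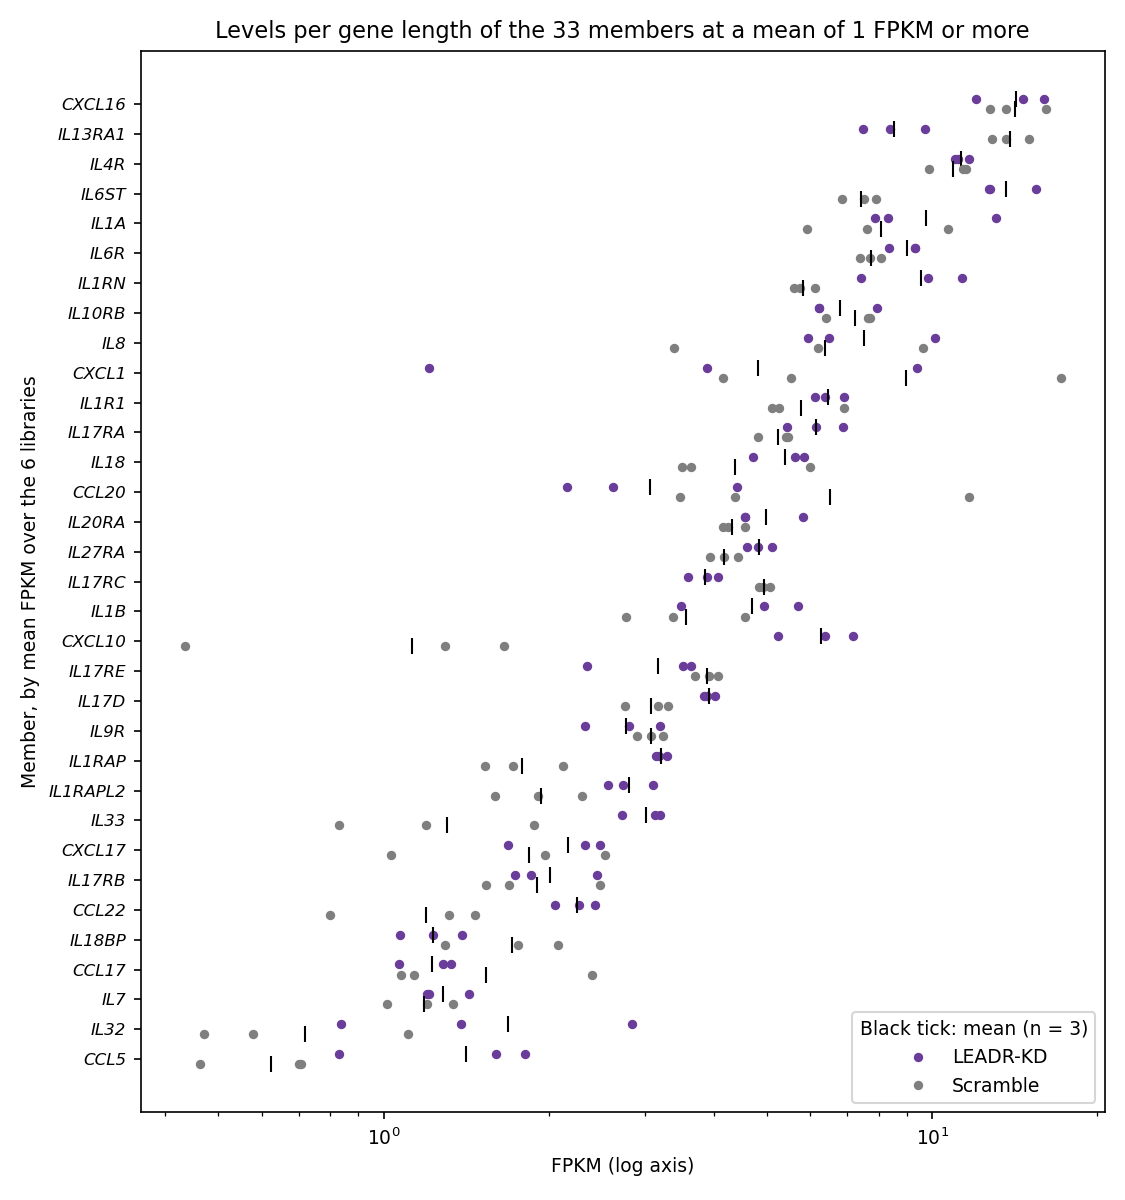
Levels per gene length of the 33 genes with a mean of at least 1 FPKM (x axis, FPKM, log axis), for LEADR-KD (purple, upper points) and Scramble (grey, lower points), with 3 libraries each and a black tick at each mean. *CXCL16* leads at 14.2 FPKM in both groups, *IL13RA1* lies lower in LEADR-KD than in Scramble, and *IL6ST* and *CXCL10* lie higher.

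Of the 45 tested genes, 7 rose and 3 fell in LEADR-KD at an adjusted p under 0.05 by edgeR's quasi-likelihood test, which is 15.6% and 6.67% of them, beside 12.2% and 12.1% of all genes tested. With a log2 fold change beyond 1 as well, 3 were higher and 1 was lower, beside 1.64% and 2.58% of all genes. The 7 that rose were *IL7R*, *CXCL10*, *IL33*, *CCL22*, *IL6ST*, *IL1RAP* and *IL1RN*, and the 3 that fell were *CXCL6*, *IL13RA1* and *IL17RC*. No test of the 45 genes as a set was run. Their median log2 fold change was 0.19, against -0.01 for all genes tested, and 31 of 45 had a positive value (68.9%, against 48.6% of all genes). Calls fell on both sides of the family, with 3 receptors higher and 2 lower among 21 tested, and 4 ligands or other genes higher and 1 lower among 24. The count depended on the processing: without library 1 of both groups, the libraries with the highest mitochondrial shares, 13 of 46 genes were called higher (28.3%, against 9.98% of all genes), and with no filter on low counts 12 of 74 were (16.2%, against 7.3% of all genes).

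**Figure D2:**
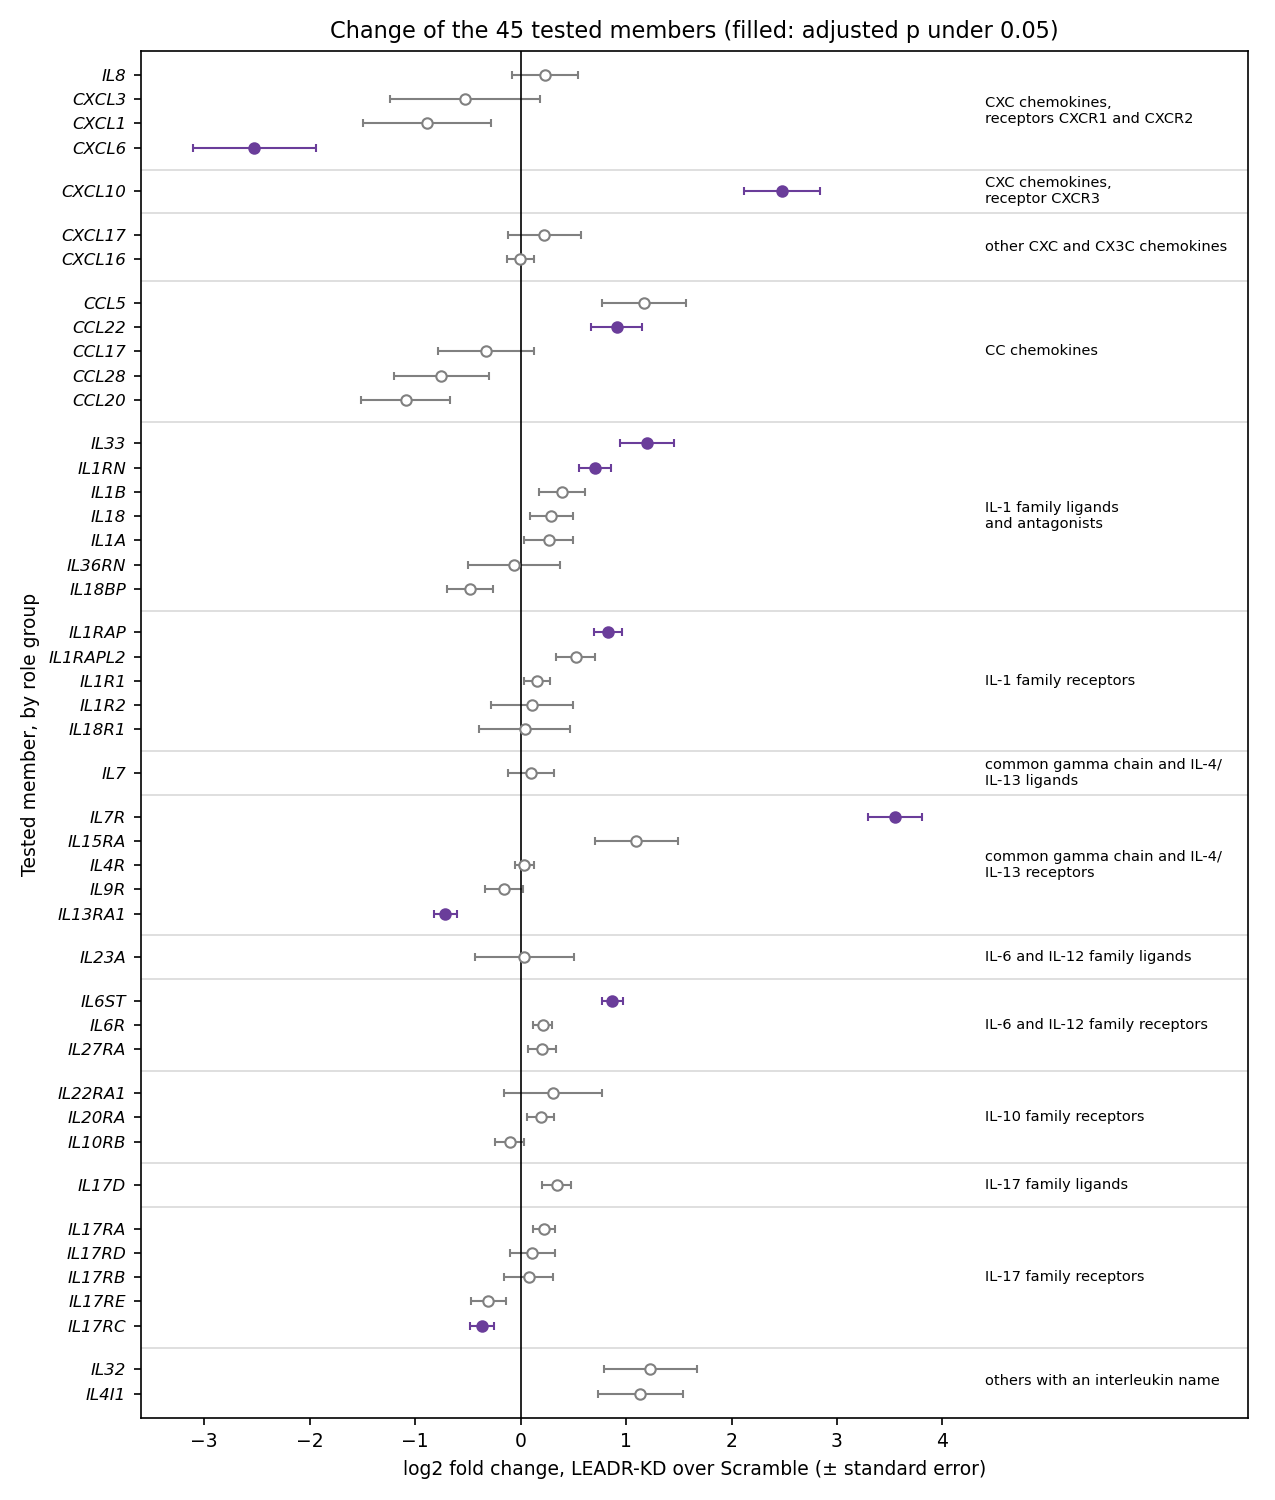
The log2 fold change of each of the 45 tested genes, LEADR-KD over Scramble (x axis), with its standard error, grouped by role as named at the right; filled points passed at an adjusted p under 0.05. *IL7R* (3.55) and *CXCL10* (2.48) lie farthest to the right, *CXCL6* (-2.52) farthest to the left, and most other genes lie between -1 and 1.

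Among the chemokines that bind CXCR1 and CXCR2, *CXCL6* fell and its neighbours did not pass. *CXCL6*, a neutrophil attractant made by epithelial cells, had 1, 12 and 5 counts in LEADR-KD 1, 2 and 3, against 25, 31 and 50 counts in Scramble 1, 2 and 3. All 3 LEADR-KD libraries lay below all 3 Scramble libraries, and the LEADR-KD libraries differed widely among themselves. It averaged 0.335 ± 0.302 CPM in LEADR-KD and 2.02 ± 0.841 CPM in Scramble (SD, n = 3 each), a log2 fold change of -2.52 (standard error 0.58, edgeR adjusted p = 0.00891) that ranged from -3.45 to -2.07 when 1 library was left out. *IL8*, the best known neutrophil attractant, had 13.5, 14.9 and 23.0 CPM in LEADR-KD, against 14.2, 7.75 and 22.1 CPM in Scramble, and the groups overlapped (log2 fold change 0.23, standard error 0.31, edgeR adjusted p = 0.642). *CXCL1* had 1.57, 5.06 and 12.2 CPM in LEADR-KD, against 7.24, 5.44 and 22.5 CPM in Scramble, again with overlap (-0.89, standard error 0.60, edgeR adjusted p = 0.323). With no filter on low counts its log2 fold change was nearly the same (-0.88), but the standard error was only 0.19 (edgeR adjusted p = 6.91e-05). The counts of *CXCL1* were the same in both fits, so this pass does not show that its groups are apart. *CXCL3* was near 1 CPM, at 0.251, 0.165 and 1.30 CPM in LEADR-KD and 0.471, 0.616 and 1.43 CPM in Scramble. The coding sequences of *CXCL1*, *CXCL2* and *CXCL3* are nearly identical, and *CXCL2* was listed at 0 in every library, so the split of reads among these 3 genes is uncertain.

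These 4 genes lie close together on chromosome 4 of GRCh37 (hg19): *IL8* from 74606223 to 74609433, *CXCL6* from 74702214 to 74714781, *CXCL1* from 74735110 to 74736959, and *CXCL3*, on the minus strand, from 74902306 to 74904524. *CXCL10* lies on the same arm from 76942273 to 76944650, on the minus strand. The promoters of these 5 genes share a short element, which is the reason to show them. It is the nuclear factor kappa B motif GGAATTTCC, searched on both strands in the 300 bases from 250 before to 50 after the RefSeq start of each gene (GRCh38.p14). It was found in the promoters of 5 of the 39 tested genes that matched a RefSeq promoter (12.8%) and of 153 of all 27305 genes with one (0.56%), and the motif was chosen after the values were seen. The windows below are upstream of the start and written 5′ to 3′ on the gene's strand, with the motif in capitals; that of *CXCL10* also shows, as its first capitals, the core of an interferon-stimulated response element.
CXCL6 promoter, chr4:73836563-73836622, plus strand: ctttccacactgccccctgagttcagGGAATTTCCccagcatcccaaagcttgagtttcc
IL8 promoter, chr4:73740452-73740511, plus strand: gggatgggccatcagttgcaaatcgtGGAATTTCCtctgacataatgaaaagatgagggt
CXCL1 promoter, chr4:73869289-73869348, plus strand: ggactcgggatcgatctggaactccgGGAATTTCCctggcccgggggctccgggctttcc
CXCL3 promoter, chr4:74038734-74038793, minus strand: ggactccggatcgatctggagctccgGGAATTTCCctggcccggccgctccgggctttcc
CXCL10 promoter, chr4:76023638-76023747, minus strand: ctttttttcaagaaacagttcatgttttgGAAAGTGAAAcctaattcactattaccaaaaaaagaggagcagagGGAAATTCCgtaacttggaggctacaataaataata
The motif starts 89, 91, 78 and 78 bases before the start of *CXCL6*, *IL8*, *CXCL1* and *CXCL3*, and 176 bases before that of *CXCL10*, where it is on the other strand. The 5 genes with the motif did not move as 1 group: *CXCL10* rose, *CXCL6* fell and the other 3 did not pass. A match is a description of the letters and does not show that a factor binds there.

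*CXCL10*, the interferon-induced attractant of T cells, rose to 98, 137 and 149 counts in LEADR-KD 1, 2 and 3, against 26, 10 and 33 counts in Scramble 1, 2 and 3. The lowest LEADR-KD library was above the highest Scramble library, and Scramble 2 was the lowest of all. The log2 fold change was 2.48 (standard error 0.36, edgeR adjusted p = 5.22e-04). Its relatives for the same receptor were scarce: *CXCL11* had 12, 7 and 15 counts in LEADR-KD, against 4, 3 and 3 counts in Scramble, and *CXCL9* had at most 1 count in a library. *CXCL11* did not pass the filter, and when all genes with a count were tested it had a log2 fold change of 1.78 with an edgeR adjusted p of 0.147. The core of the interferon-stimulated response element was searched on both strands as GAAA, any 2 bases and GAAA. It was in the promoters of 4 of the 39 matched genes (10.3%), *CXCL10*, *IL1RN*, *IL18BP* and *IL18R1*, and of 4.38% of all promoters. The 4 genes did not move as 1 group: *CXCL10* and *IL1RN* rose, whereas *IL18BP* (-0.48) and *IL18R1* (0.04) did not pass. This motif too was chosen after the values were seen. For scale, 8 of 19 interferon-stimulated genes listed for reference rose and 0 fell, beside 12.2% and 12.1% of all genes tested. The median log2 fold change of the 19 was 0.76, which *CXCL10* exceeded. *OASL* (1.92), *IFIT1* (2.29), *IFIT3* (1.77) and *MX2* (1.75) changed most among the 8. Over all 19 listed genes the mean log2(CPM + 1) was 5.12, 5.43 and 5.82 in LEADR-KD 1, 2 and 3. It was 4.41, 3.70 and 5.18 in Scramble 1, 2 and 3, so that Scramble 2 was the lowest here as well.

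**Figure D3:**
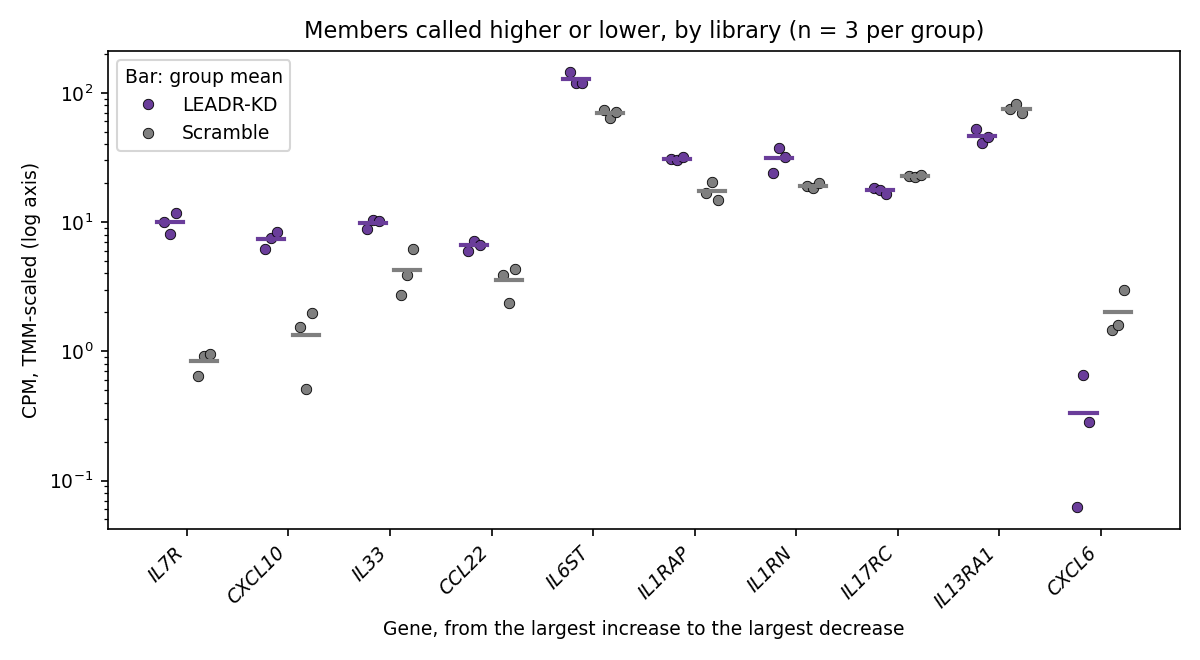
TMM-scaled CPM (log axis) in each library of the 10 genes called higher or lower, from *IL7R* at the left to *CXCL6* at the right; LEADR-KD is purple at the left of each pair and Scramble grey at the right, points are libraries and bars are means (n = 3 each). The groups of all 10 genes are apart, which is likely for genes chosen by a low adjusted p and is no separate result. The LEADR-KD libraries of *CXCL6* spread from 0.0626 to 0.660 CPM.

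Among the other CXC chemokines *CXCL16* was the most even of the family, with 33.6, 41.1 and 44.7 CPM in LEADR-KD, against 35.9, 38.4 and 45.5 CPM in Scramble. Its log2 fold change was 0.00 with a standard error of 0.13 (edgeR adjusted p = 0.989), which bounds any change more tightly than for most chemokines here. *CXCL17*, a chemokine of mucosal surfaces, had 2.0, 2.97 and 2.77 CPM in LEADR-KD and 1.24, 2.36 and 3.04 CPM in Scramble, with a wide error (0.22, standard error 0.35, edgeR adjusted p = 0.685). *CX3CL1* and *CXCL14* had 28 counts and 1 count in all.

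Of the 24 CC chemokines 18 had no count and 5 were tested. *CCL22*, which attracts regulatory and type 2 helper T cells, rose to 96, 130 and 118 counts in LEADR-KD, against 66, 46 and 73 counts in Scramble. The groups did not overlap, and the gap between LEADR-KD 1 and Scramble 3 was small. The log2 fold change was 0.91 (standard error 0.24, edgeR adjusted p = 0.0181); the call was lost without LEADR-KD 2 (edgeR adjusted p = 0.0716) and without Scramble 2 (edgeR adjusted p = 0.0618). *CCL17*, which acts on the same receptor, CCR4, and is its neighbour on chromosome 16 (*CCL22* from 57392684 to 57400102, *CCL17* from 57438679 to 57449974), had 0.814, 0.660 and 0.793 CPM in LEADR-KD, against 0.707, 0.667 and 1.49 CPM in Scramble, and did not pass (-0.33, edgeR adjusted p = 0.650). *CCL5*, an attractant of T cells and monocytes, had 1.25, 2.75 and 2.44 CPM in LEADR-KD, against 0.707, 1.08 and 1.07 CPM in Scramble, and narrowly missed the threshold (1.17, standard error 0.40, edgeR adjusted p = 0.0516) although its groups did not overlap. It passed under 8 of 16 alternatives, DESeq2 among them (adjusted p = 0.0421). *CCL20*, which attracts cells that bear CCR6, had 2.88, 3.52 and 5.89 CPM in LEADR-KD, against 5.89, 4.67 and 15.8 CPM in Scramble, and did not pass (-1.09, standard error 0.42, edgeR adjusted p = 0.0836). Its value rested on single libraries in both directions: without Scramble 3 the log2 fold change was -0.36 (edgeR adjusted p = 0.478), and without Scramble 2 it was -1.39 and passed (edgeR adjusted p = 0.0355). With no filter on low counts *CCL20* passed (edgeR adjusted p = 1.34e-05), at a similar log2 fold change (-1.08) but a smaller standard error (0.22). Its counts were the same in both fits, so this pass does not show that its groups are apart. *CCL28*, a mucosal chemokine, had 1.25 ± 0.375 CPM in LEADR-KD and 2.09 ± 1.24 CPM in Scramble (SD, n = 3 each; edgeR adjusted p = 0.259).

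The chemokine receptors were examined beside their ligands. Of 23 such genes, 7 had no count and 7 were tested, with 1 higher and 1 lower. Of all genes tested, 12.2% were higher and 12.1% lower. *CCRL2*, a receptor that binds the attractant chemerin without signalling, rose to 109, 82 and 79 counts in LEADR-KD, against 35, 28 and 30 counts in Scramble (log2 fold change 1.58, standard error 0.28, edgeR adjusted p = 0.00168), with every LEADR-KD library above every Scramble library. *ACKR3*, a scavenger of CXCL11 and CXCL12, had 1759, 2647 and 2626 counts in LEADR-KD, against 2595, 3873 and 3549 counts in Scramble (-0.48, edgeR adjusted p = 0.0251); it lost the call under 8 of 16 alternatives. The other 5 tested were *CXCR6*, the receptor of CXCL16 (-1.47, edgeR adjusted p = 0.0944), *CCR1* (-0.77, edgeR adjusted p = 0.0534), *CCR7*, *CCR3* and *ACKR2*, of which none passed. *CCR4*, the receptor of CCL22, and *CXCR1* had 0 counts in every library, and *CXCR3*, the receptor of CXCL10, had 2 counts in LEADR-KD 1 and 0 elsewhere, so the signalling receptors of both chemokines that rose were at or near 0 in the same cells.

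In the IL-1 family, 2 of 7 tested ligands and antagonists rose and 0 fell, beside 12.2% and 12.1% of all genes tested. *IL33*, an alarmin that is stored in the nucleus of epithelial cells and released on damage, had 140, 189 and 179 counts in LEADR-KD, against 46, 76 and 103 counts in Scramble. All LEADR-KD libraries were above all Scramble libraries, and the Scramble libraries were the more spread. The means were 9.77 ± 0.873 CPM in LEADR-KD and 4.25 ± 1.75 CPM in Scramble (SD, n = 3 each), a log2 fold change of 1.2 (standard error 0.26, edgeR adjusted p = 0.00561). Its receptor gene, *IL1RL1*, had 0 counts in every library. *IL1RN*, the receptor antagonist that blocks IL-1, had 385, 675 and 566 counts in LEADR-KD, against 320, 358 and 337 counts in Scramble. LEADR-KD 1 was the lowest of its group and still above the Scramble libraries, and the log2 fold change was 0.70 (standard error 0.15, edgeR adjusted p = 0.00584). The promoters of *IL18BP* and *IL18R1*, which did not pass, also hold the interferon element core and are not shown. A window of the *IL1RN* promoter holds the core, in capitals, which starts 122 bases before 1 of the RefSeq starts of the gene.
IL1RN promoter, chr2:113127341-113127400, plus strand, GRCh38.p14: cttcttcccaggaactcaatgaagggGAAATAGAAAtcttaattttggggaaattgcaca

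The agonists that IL1RN opposes did not pass. *IL1A* had 17.6, 16.8 and 27.8 CPM in LEADR-KD, against 16.3, 12.7 and 22.9 CPM in Scramble (0.27, standard error 0.23, edgeR adjusted p = 0.453). *IL1B* had 10.8, 15.3 and 17.7 CPM in LEADR-KD, against 10.5, 8.62 and 14.3 CPM in Scramble (0.39, standard error 0.22, edgeR adjusted p = 0.217). Both overlapped between the groups and both were highest in library 3 of each group. *IL18*, an inducer of interferon gamma, averaged 14.2 ± 1.54 CPM in LEADR-KD and 11.6 ± 3.71 CPM in Scramble (SD, n = 3 each; edgeR adjusted p = 0.333), and *IL18BP*, its soluble inhibitor, averaged 5.34 ± 0.707 CPM in LEADR-KD and 7.47 ± 1.72 CPM in Scramble (edgeR adjusted p = 0.132). *IL18BP* overlaps *NUMA1* on the other strand, which had 19007 counts, and it is not known whether the counting used strand, so its reads may not have been told apart from those of *NUMA1*. *IL1A*, *IL1B*, *IL36RN* and *IL1RN* lie together on chromosome 2 of GRCh37, from 113531492 to 113891593, and of these 4 only *IL1RN* passed.

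Among the IL-1 family receptors the shared chain rose. *IL1RAP*, the accessory protein that IL1R1, the IL-33 receptor and the IL-36 receptor need to signal, had 487, 551 and 559 counts in LEADR-KD, against 283, 400 and 249 counts in Scramble. The LEADR-KD libraries were tight, at 30.5, 30.3 and 31.7 CPM, and all were above the Scramble libraries, at 16.7, 20.5 and 14.9 CPM. The log2 fold change was 0.83 (standard error 0.13, edgeR adjusted p = 9.76e-04). *IL1R1*, the signalling receptor, averaged 45.9 ± 2.98 CPM in LEADR-KD and 41.2 ± 7.11 CPM in Scramble (SD, n = 3 each) and did not pass (0.16, standard error 0.12, edgeR adjusted p = 0.407). *IL1RAPL2*, a relative expressed mainly in the nervous system, had 8.58, 9.79 and 8.10 CPM in LEADR-KD, against 7.30, 6.06 and 5.07 CPM in Scramble, and missed the threshold (0.52, standard error 0.19, edgeR adjusted p = 0.0621) but passed under 3 of 16 alternatives. The decoy receptor *IL1R2* and *IL18R1* were between 0.940 and 2.38 CPM and had log2 fold changes of 0.11 and 0.04. Among 27 other tested genes of IL-1 signalling and processing, 5 rose and 0 fell, beside 12.2% and 12.1% of all genes tested. The median log2 fold change of the 27 was 0.08. The 5 that rose were *AIM2*, a sensor of cytosolic DNA that drives the processing of IL-1 beta and IL-18 (1.78, edgeR adjusted p = 3.10e-04), the kinase *CHUK* (0.68), the adaptor *MYD88* (0.44) and the kinases *IRAK4* (0.42) and *IRAK1* (0.26). *AIM2* stood out among them, with 104, 181 and 194 counts in LEADR-KD, against 44, 46 and 51 counts in Scramble, and *MYD88* had 1736, 2207 and 2185 counts in LEADR-KD, against 1406, 1626 and 1597 counts in Scramble. The call of *IRAK1* was lost under 7 of 16 alternatives and that of *IRAK4* under 9. Leaving out any single library other than Scramble 1 removed the call of *IRAK1*. For *IRAK4*, leaving out any other than Scramble 2 did so.

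The largest change of the family was in a receptor of the common gamma chain group. *IL7R*, the alpha chain shared by the receptors for IL-7 and for thymic stromal lymphopoietin, had 161, 147 and 208 counts in LEADR-KD, against 11, 18 and 16 counts in Scramble. The groups were far apart and each was tight, at 10.1, 8.09 and 11.8 CPM in LEADR-KD and 0.648, 0.924 and 0.955 CPM in Scramble. The edgeR fit gave *IL7R* a fold of 11.7 (log2 fold change 3.55, standard error 0.26, edgeR adjusted p = 5.27e-06). Its partners did not pass or were too low to be tested. *IL7* itself had 65, 75 and 86 counts in LEADR-KD, against 59, 80 and 77 counts in Scramble (0.10, edgeR adjusted p = 0.776). *IL7* overlaps *ZC2HC1A*, which had 1994 counts, on the other strand over 44023 bases. It is not known whether the counting used strand, so reads of these genes may not have been told apart. *IL2RG*, the common gamma chain, had 17, 23 and 7 counts in LEADR-KD, against 5, 5 and 2 counts in Scramble, below the filter; tested with no filter its log2 fold change was 1.99 with an edgeR adjusted p of 0.0351. *CRLF2*, the other chain of the receptor for thymic stromal lymphopoietin, had 0 counts in every library.

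*IL15RA*, which presents IL-15 to neighbouring cells, had 1.32, 2.81 and 2.55 CPM in LEADR-KD, against 0.942, 0.821 and 1.37 CPM in Scramble, with LEADR-KD 1 below Scramble 3 (1.10, standard error 0.39, edgeR adjusted p = 0.0640), and passed under 4 of 16 alternatives. *IL9R* averaged 6.96 ± 1.10 CPM in LEADR-KD and 7.76 ± 0.409 CPM in Scramble (SD, n = 3 each; edgeR adjusted p = 0.574), and it has near-identical copies in the genome, so its reads are uncertain. Other genes of common gamma and beta chain signalling moved in both directions. Of 8 tested, *STAT5B*, a transcription factor downstream of IL-7 (0.99), and the kinase *JAK2* (0.90) rose, and *INPP5D*, a phosphatase that restrains cytokine signalling in blood cells (-2.44), fell. Of all genes tested, 12.2% rose and 12.1% fell.

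*IL13RA1* fell while its partner did not pass. *IL13RA1*, which joins IL4R in the receptor that binds IL-4 and IL-13, had 833, 737 and 798 counts in LEADR-KD, against 1261, 1591 and 1175 counts in Scramble. Every LEADR-KD library was below every Scramble library, and the log2 fold change was -0.71 (standard error 0.11, edgeR adjusted p = 7.05e-04). *IL4R* had 66.8, 71.6 and 68.0 CPM in LEADR-KD, against 60.6, 69.9 and 71.2 CPM in Scramble, a log2 fold change of 0.03 with a standard error of 0.09 (edgeR adjusted p = 0.827). The decoy *IL13RA2* had 46 counts in all, and *IL4* and *IL13* had none.

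In the IL-6 family the shared chain was the gene that rose. *IL6ST*, which encodes gp130, the signalling chain for IL-6, IL-11, LIF and oncostatin M, had 2292, 2166 and 2091 counts in LEADR-KD, against 1260, 1249 and 1182 counts in Scramble. The groups were well apart, at 127 ± 14.3 CPM in LEADR-KD and 69.6 ± 5.12 CPM in Scramble (SD, n = 3 each), with a log2 fold change of 0.87 (standard error 0.10, edgeR adjusted p = 1.05e-04). A pseudogene on the other strand with 770 counts over the 6 libraries overlaps 399 bases of it, far fewer than the counts of *IL6ST*. *IL6R*, the binding chain for IL-6, had 58.9, 59.4 and 53.1 CPM in LEADR-KD, against 51.7, 47.3 and 49.4 CPM in Scramble, and did not pass although the groups did not overlap (0.21, standard error 0.09, edgeR adjusted p = 0.121). *IL27RA* averaged 13 ± 0.713 CPM in LEADR-KD and 11.3 ± 0.649 CPM in Scramble (SD, n = 3 each; edgeR adjusted p = 0.317). Of the ligands only *IL23A*, a subunit of IL-23, was tested (0.04, edgeR adjusted p = 0.969), and *IL6* had no count while *IL11* had 36 in all.

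Of 10 other tested genes of gp130 signalling 2 rose and 1 fell, beside 12.2% and 12.1% of all genes tested. *SOCS3*, an inhibitor that binds gp130 and is induced by it, had 99, 138 and 128 counts in LEADR-KD, against 49, 83 and 63 counts in Scramble (0.94, edgeR adjusted p = 0.00740). *LIF*, a ligand of the family, had 211, 361 and 309 counts in LEADR-KD, against 167, 185 and 222 counts in Scramble (0.64, edgeR adjusted p = 0.0261), and LEADR-KD 1 lay below Scramble 3 in counts. *OSMR*, the receptor chain for oncostatin M that pairs with gp130, had 302, 289 and 364 counts in LEADR-KD, against 485, 464 and 488 counts in Scramble (-0.56, edgeR adjusted p = 0.0117). The call of *LIF* was lost without LEADR-KD 2, LEADR-KD 3, Scramble 1 or Scramble 2, and that of *OSMR* without LEADR-KD 2 (edgeR adjusted p = 0.0582).

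The IL-10 family receptors did not pass. *IL10RB*, a chain shared by the receptors for IL-10, IL-22 and lambda interferons, averaged 17.3 ± 2.51 CPM in LEADR-KD and 18.6 ± 1.85 CPM in Scramble (SD, n = 3 each; -0.10, standard error 0.14, edgeR adjusted p = 0.641). *IL20RA* averaged 23.3 ± 3.32 CPM in LEADR-KD and 20.4 ± 1.02 CPM in Scramble (0.19, standard error 0.13, edgeR adjusted p = 0.321). *IL22RA1*, which marks epithelial cells as responders to IL-22, was near 1 CPM (0.31, standard error 0.47). Of the 6 ligands of the family 5 had no count and *IL24* had 6 in all. In the common beta chain group, *IL3RA* was the highest with 49 counts in all, and no gene was tested.

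Among the IL-17 receptors *IL17RC* fell, by a small amount. *IL17RC*, which pairs with IL17RA to bind IL-17A and IL-17F, had 295, 323 and 289 counts in LEADR-KD, against 383, 431 and 389 counts in Scramble. The groups were tight and apart, at 18.5, 17.8 and 16.4 CPM in LEADR-KD and 22.6, 22.1 and 23.2 CPM in Scramble, but the log2 fold change was only -0.37 (standard error 0.11, edgeR adjusted p = 0.0358) and the call was lost under 8 of 16 alternatives, with an edgeR adjusted p of 0.0507 without library 1 of both groups. *IL17RE*, its neighbour on chromosome 3 (from 9944296 to 9958086, beside *IL17RC* from 9958758 to 9975314), had 11, 16.5 and 17 CPM in LEADR-KD, against 17.4, 18.5 and 19.2 CPM in Scramble, and did not pass (-0.31, standard error 0.16, edgeR adjusted p = 0.210). *IL17RA*, the chain common to the family, averaged 55.7 ± 6.64 CPM in LEADR-KD and 47.8 ± 3.26 CPM in Scramble (SD, n = 3 each; 0.22, edgeR adjusted p = 0.163). *IL17RB* and *IL17RD* averaged 6.14 ± 1.18 and 5.39 ± 0.788 CPM in LEADR-KD and 5.83 ± 1.55 and 4.98 ± 0.852 CPM in Scramble, with overlap.

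The ligand *IL17D* had 12.8, 13 and 13.4 CPM in LEADR-KD, against 9.25, 10.6 and 11.1 CPM in Scramble, without overlap but without passing (0.34, standard error 0.14, edgeR adjusted p = 0.0991). *IL17A* and *IL17F* had no count. Of 11 other tested genes of IL-17 signalling and its targets, 0 rose and 3 fell, beside 12.2% and 12.1% of all genes tested. The 3 were *ZC3H12A*, an RNase that degrades cytokine messages (-0.90, edgeR adjusted p = 0.0238), *NFKBIZ*, a nuclear cofactor for IL-17 targets (-0.47, edgeR adjusted p = 0.0377), and *TNIP1*, an inhibitor of nuclear factor kappa B signalling (-0.41, edgeR adjusted p = 0.00564). *ZC3H12A* had 501, 839 and 1054 counts in LEADR-KD, against 1318, 1135 and 2027 counts in Scramble, with library 3 the highest of each group. Its call was lost under 7 of 16 alternatives, DESeq2 among them (adjusted p = 0.0859), and that of *NFKBIZ* under 9. Both were also lost without some single libraries, whereas the call of *TNIP1* held under all 16.

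Of the remaining genes named as interleukins, *IL32*, a cytokine with no known close relatives, had 2.44, 4.07 and 8.32 CPM in LEADR-KD, against 1.71, 1.39 and 3.28 CPM in Scramble (1.23, standard error 0.44, edgeR adjusted p = 0.0641), and LEADR-KD 1 lay below Scramble 3. *IL4I1*, an enzyme that oxidises amino acids and is named for its induction by IL-4, had 2.19, 2.97 and 3.91 CPM in LEADR-KD, against 1.83, 0.616 and 1.73 CPM in Scramble (1.13, standard error 0.40, edgeR adjusted p = 0.0607). *IL4I1* overlaps *NUP62* on the same strand, which had 15548 counts, so that reads of the shared stretch are uncertain. *IL32* and *IL4I1* each passed under 6 of 16 alternatives, DESeq2 among them (adjusted p = 0.0176 and 0.0330).

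Some genes of the family also differed between libraries of 1 group. Of the 45 tested genes, 15 were highest in library 3 of both groups (33.3%, against 16.3% of all genes tested). They were the chemokines *CXCL1*, *CXCL3*, *CXCL10*, *CXCL16* and *CCL20*, the interleukins *IL1A*, *IL1B*, *IL7*, *IL8*, *IL17D* and *IL32*, and the receptors *IL7R*, *IL17RE*, *IL18R1* and *IL22RA1*. *CXCL6*, *CCL5*, *CCL22* and *IL33* were not among them. Only *IL6ST* was highest in library 1 of both (2.22%, against 17.8% of all genes). *CXCL1* shows the size of this spread, since its highest library exceeded its lowest by more than the groups differed, at 12.2 against 1.57 CPM within LEADR-KD and 22.5 against 5.44 CPM within Scramble. The mitochondrial share ran the other way, at 10.8%, 5.73% and 4.79% in LEADR-KD 1, 2 and 3 and 11.9%, 4.57% and 3.06% in Scramble 1, 2 and 3, and its part in these values was not tested.

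**Figure D4:**
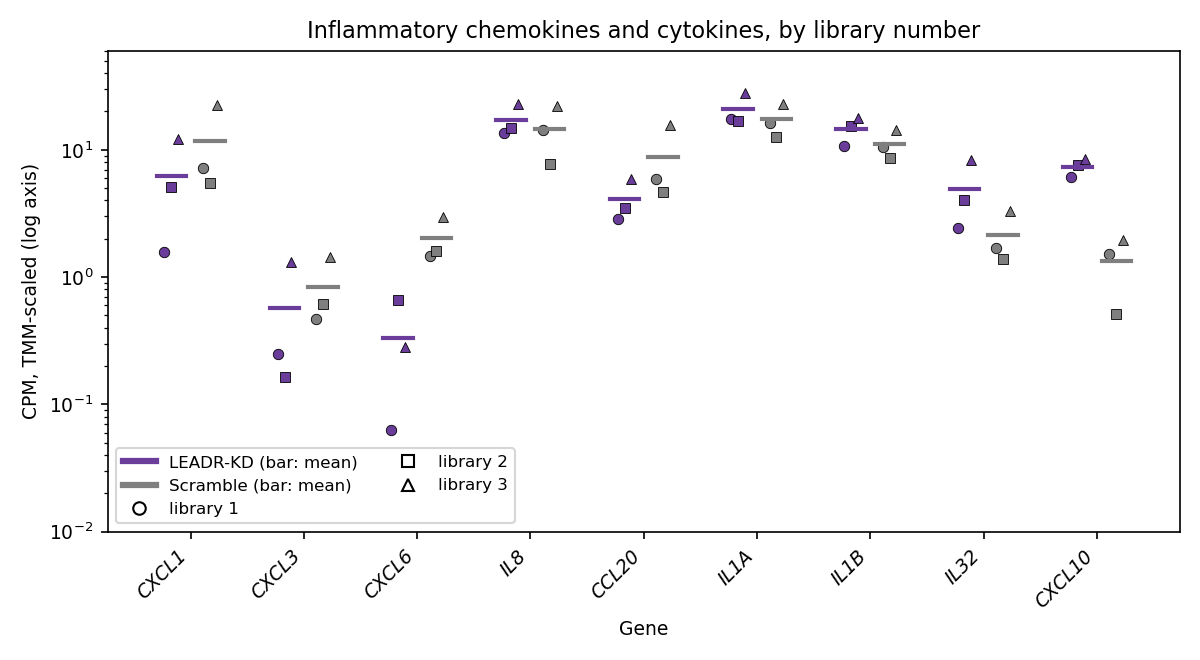
TMM-scaled CPM (log axis) of 9 chemokines and cytokines in each library, LEADR-KD in purple at the left of each pair and Scramble in grey at the right; circles, squares and triangles are libraries 1, 2 and 3 and bars are means (n = 3 each). The triangle is the highest point of both groups for every gene shown but *CXCL6*, where LEADR-KD 2 is above LEADR-KD 3, and only *CXCL6* and *CXCL10* have groups that do not overlap.

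The 3′ UTRs of these genes were then read for matches to the siRNA. The complement of bases 2 to 8 of the strand that pairs with *LEADR*, ATATAGG, was in 3 of the 44 tested genes with an annotated 3′ UTR (6.82%, against 7.92% of 12054 genes tested), and *IL6ST* was the only called gene among them, although it rose. The complement of bases 2 to 8 of the listed strand, ACCCAGT, was in 6 of 44 (13.6%, against 11.9%). Of these, *CXCL6* and *IL13RA1* fell. The others, *IL8* (log2 fold change 0.23), *IL6R* (0.21), *IL22RA1* (0.31) and *IL10RB* (-0.10), did not pass. Only the sites in called genes are shown, in GRCh37 and with the match in capitals.
CXCL6 3′ UTR, chr4:74703417-74703445, plus strand: gagatccctggACCCAGTaagaataagaa
IL13RA1 3′ UTR, chrX:117928305-117928333, plus strand: tacctaagcaaACCCAGTgtcaggatggt
IL6ST 3′ UTR, chr5:55235492-55235520, minus strand: gcagatgctaaATATAGGggttttcttag
*IL7R*, *CXCL10*, *CCL22*, *IL33*, *IL1RN*, *IL1RAP* and *IL17RC* held neither match. The shares in these genes were close to those of all genes, and whether either strand acted on a message was not tested.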

How the data were processed

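Poly(A) RNA of RT4 cells transfected with *LEADR* siRNA or scramble siRNA was measured in 3 libraries per group, all used and grouped by the labels. The authors deposited a table of raw counts. The submitters' processing notes list an aligner (HISAT2 2.0.5), a counter (featureCounts 1.5.0-p3) and the build hg19, whereas the methods describe quantification with Salmon. They also deposited FPKM values, in which the authors divided each count by gene length and 1 constant per library, and a table of fold changes and p-values of their own comparison by DESeq2 1.20.0, which was not used. The libraries were directional, but whether strand was used in counting is not stated.

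The genes, role groups, pathway lists and the rule for naming genes were chosen with earlier results of these data known. The rule names every tested gene with an adjusted p under 0.05, every gene with a mean of at least 5 CPM, the gene with the highest mean FPKM in each role group, chemokine receptors that were tested, and for each list up to 4 called genes per direction. Genes with near misses and low partners were added after their values were seen. The filterByExpr function of edgeR 4.0.16 (R 4.3.3, minimum count 10) left 14178 of 25957 genes with any count. The comparison of LEADR-KD with Scramble used the quasi-likelihood test of edgeR with TMM scaling and no covariate, and adjusted p-values are Benjamini-Hochberg over all genes tested. The standard error is the size of the log2 fold change divided by the square root of the F statistic. CPM are TMM-scaled and given as mean ± SD. The fit was tested on simulated data in which all genes had the same spread beyond counting error and the lowest counts were left out. That test does not cover genes that spread as widely as *CXCL1*. Alternatives were DESeq2 1.42.0, other scalings and filters, limma 3.58.1 on log2(FPKM + 1) or log2(FPKM + 0.1), the replicate number as a block, and leaving out libraries. Floors of 3 counts cover counting error only. The 3′ UTRs are those of canonical GENCODE transcripts of GRCh37, and the promoters are from RefSeq (GRCh38.p14), matched by symbol for 39 of 45 genes.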

Additional observations from a re-analysis of the deposited data

How the results depend on the processing

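Of the 10 called genes, *IL7R*, *CXCL10*, *IL6ST*, *IL1RAP* and *IL13RA1* kept their call and direction under all 16 alternatives, and no tested value of a called gene reversed. *CXCL6*, *IL33* and *IL1RN* lost it only by limma on log2(FPKM + 1) with no filter, *CCL22* under 3 alternatives and *IL17RC* under 8. The number of genes of the family called higher was 7; it was 12 with no filter on low counts, 13 without replicate 1 of both groups, and 4 by limma on log2(FPKM + 1) with no filter, and 6 to 11 when 1 library was left out. Of those beyond a log2 fold change of 1, 3 in the reported fit, there were 6 by DESeq2, 8 with no filter, 8 without replicate 1 of both groups and 2 to 7 when 1 library was left out, the 7 without LEADR-KD 1. The number called lower was 3; it was 1 by limma with no filter and 2 to 3 when 1 library was left out. Beyond 1 it was 1, with 2 under no filter, 0 by limma on log2(FPKM + 1) with the filter, 0 without it, and 1 to 2 when 1 library was left out. Of the pathway list genes, 18 were called higher and 6 lower, with 11 and 2 by limma with no filter and 3 to 6 lower when 1 library was left out. Of all genes, 1736 were called higher and 1719 lower, with 1085 higher under library totals, 915 higher and 854 lower by limma with no filter, and 1142 to 1552 lower when 1 library, or library 1 of both groups, was left out. The cause of these shifts was not tested.

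The libraries share replicate numbers, but it is not stated whether libraries with the same number share a culture or day. The numbers were therefore not used as pairs in the reported fit. Over all genes tested, the deviations from the group means correlated at 0.228 for number 1, 0.00058 for number 2 and 0.266 for number 3. LEADR-KD 1 correlated best with Scramble 1 and LEADR-KD 3 with Scramble 3, whereas LEADR-KD 2 correlated best with Scramble 3 (0.0755). Over the tested genes of the family alone, the correlation of libraries with the same number was 0.340, 0.216 and 0.748. There LEADR-KD 2 and 3 correlated best with the Scramble library of their number, whereas LEADR-KD 1 correlated best with Scramble 2 (0.443). Whether the numbers mark a shared batch was not tested. In a fit that included the number as a replicate block all the same, 13 genes of the family were called higher, 7 of them beyond 1, and 5 were called lower, with *CXCL1* (-0.94, edgeR adjusted p = 0.00717) and *CCL20* (-0.99, edgeR adjusted p = 0.00196) added to the 3. The 6 added above were *CCL5*, *IL15RA*, *IL17RA*, *IL1RAPL2*, *IL32* and *IL4I1*. Under the block 29 list genes were called higher and 11 lower, and 2489 and 2365 of all genes.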
